A study of Mus musculus with 8 samples.

Results

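The voltage-gated sodium, voltage-gated calcium and HCN (hyperpolarization-activated) channel genes are represented by 36 of the 34821 gene names on the array, through 58 of its 55681 probes. In counts of gene names, a probe without one stands as a name of its own. The channel genes were taken by symbol, as every gene whose name begins with Scn and a digit, with Cacna, with Cacnb1 to Cacnb4 or with Hcn and a digit. Only probes that the scanner software called well above background on 4 or more of the 8 arrays were used, and the brightest of these stood for its gene. By this filter 31 of the 36 genes and 48 of their 58 probes were measured, against 20894 of all gene names and 29406 of all probes.

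Hippocampal total RNA of female C57BL6/J mice, 8 weeks old and kept for 4 weeks in an enriched environment, was labelled with Cy3 and hybridised to one-colour Agilent arrays. The animals had been treated with anti-CD4 antibody (n = 4), which binds a receptor on the surface of helper T cells, or with a control antibody (n = 4). Strain, sex, age and enriched housing were common to both groups, and no group in standard housing was analysed here. The labels call the first group depleted of CD4 cells, and these arrays do not measure that depletion. Whether the 4 samples of a group are 4 animals is not stated in the labels, and the p-values therefore refer to the spread among samples, part or all of which may be technical.

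The pore of a voltage-gated sodium or calcium channel is formed by a large alpha subunit, and smaller beta and alpha2-delta subunits set how much of it reaches the membrane and how it opens. Sodium channels carry the upstroke of the action potential, calcium channels couple depolarization to transmitter release and to signalling in dendrites and nucleus, and HCN channels open on hyperpolarization and damp or pace excitability. In hippocampal neurons sodium channels are gathered at the axon initial segment, and HCN channels shape the integration of synaptic input in dendrites.

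Between 51.1% and 54.3% of probes per array were well above background and none was saturated. Correlations between arrays were 0.989 to 0.996 inside a group and 0.987 to 0.995 across groups, and the number of arrays limits the precision. Each group occupied its own row of the slide, so an effect of the row cannot be told apart from that of the antibody. Defining markers of the labelled tissue were present, with 9 of 9 dentate granule, 5 of 5 CA1 and 6 of 7 CA2 and CA3 marker genes past the filter. Cd4 itself differed by 0.02 (log2, anti-CD4 minus control; limma, adjusted p = 0.948). Levels are given as log2 signal minus the 75th percentile of the array, a scale that compares arrays for the same probe but not probes with each other, and every difference is anti-CD4 minus control. In such bulk tissue fewer cells of a type and less RNA per cell cannot be told apart.

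The probes on which the following results turn are shown by the first 30 bases of each 60-base probe, as the deposited files give them, with positions and strand on mm9. They cover Cacna1i, Cacna2d2, Cacna2d3 and Cacnb2, which had an unadjusted p under 0.05, and the 4 measured probes of Scn3a, which differed in sign. No motif was compared, so all letters are lower case, and no mm9 annotation was used here, so exon or UTR is not stated.
Cacna1i, brightest (chr15:80228652-80228711, plus strand): atagagaaaccaagccgcaccgccagccag
Cacna1i, other (chr15:80225995-80226054, plus strand): aggcacagctggcctccggcttcggctcct
Cacna2d2, brightest (chr9:107431245-107431304, plus strand): tgtcagctgtgtcctgtgggggcgtgtgtg
Cacna2d2, other (chr9:107431615-107431674, plus strand): tattttcaaatggtttattacagaagatca
Cacna2d3 (chr14:29718399-29718458, minus strand): caaggtgacactaactaatgggatgttctt
Cacnb2, brightest (chr2:14907912-14907971, plus strand): tcaaaagctgtttgggtagctgccatctca
Cacnb2, other (chr2:14882385-14885558, plus strand): aacagagagccaagcaagggaaattctatt
Scn3a, brightest (chr2:65296320-65296379, minus strand): gtaacaccctgctacactatctactgagaa
Scn3a, second (chr2:65297940-65297999, minus strand): tccactttctggatggtgttagcttacaag
Scn3a, next (chr2:65346334-65346393, minus strand): tactggacagcttccgccagaggtgataat
Scn3a, dimmest (chr2:65332960-65333019, minus strand): agagtttagcagtgagtcagaactggaaga

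No channel gene changed past the adjusted threshold. In limma's fit over all 20894 rows, 0 of the 31 genes had a Benjamini-Hochberg adjusted p under 0.05, as did 0 of all rows (0%), and the smallest adjusted p was 0.270 (Cacna1i) among the channels and 0.0871 over the array. An unadjusted p under 0.05 was reached by 5 of 31 channel genes (16.1%), against 12.8% of all rows. That count was 1 without anti-CD4 replicate 2, where the share of all rows was 9.25%, and 3 without control replicate 2, where it was 10.69%. It was 2 with the mean of a gene's probes and 2 with the second brightest probe, where the shares of all rows were 12.2% and 12.3%. Of the 5 genes, 2 read higher in anti-CD4 samples (Cacna2d2 among them), where the share of all rows was 6.61%, and 3 read lower (Cacna1i, Cacna2d3 and Cacnb2), where it was 6.18%. The groups did not overlap for 3 of 31 genes (9.68%), against 8.10% of all rows. On the higher side this held for 1 gene, where the share was 4.07%, and on the lower side for Cacna1i and Cacna2d3, where it was 4.03%. Without anti-CD4 replicate 3 the groups were separate for 8 genes, and for 16.8% of all rows, and for 5 without anti-CD4 replicate 4 or control replicate 1, where the shares of all rows were 10.71% and 11.4%. The channel genes' shares with all arrays were near those of the whole array.

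The differences lay between -0.22 and 0.59, with 16 genes above 0 and 15 below, with a median of 0.0062 for the channel genes and 0.0126 for all rows (-0.04 for the channel genes without anti-CD4 replicate 1). The spread between arrays of a group was also like that of the array as a whole, with a median pooled SD of 0.137 for the channel genes and for all rows. The 95% intervals ran from -0.22 to 0.06 for Scn2b, among the narrowest, to -0.26 to 1.24 for Cacna2d4, the widest.

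**Figure D1:**
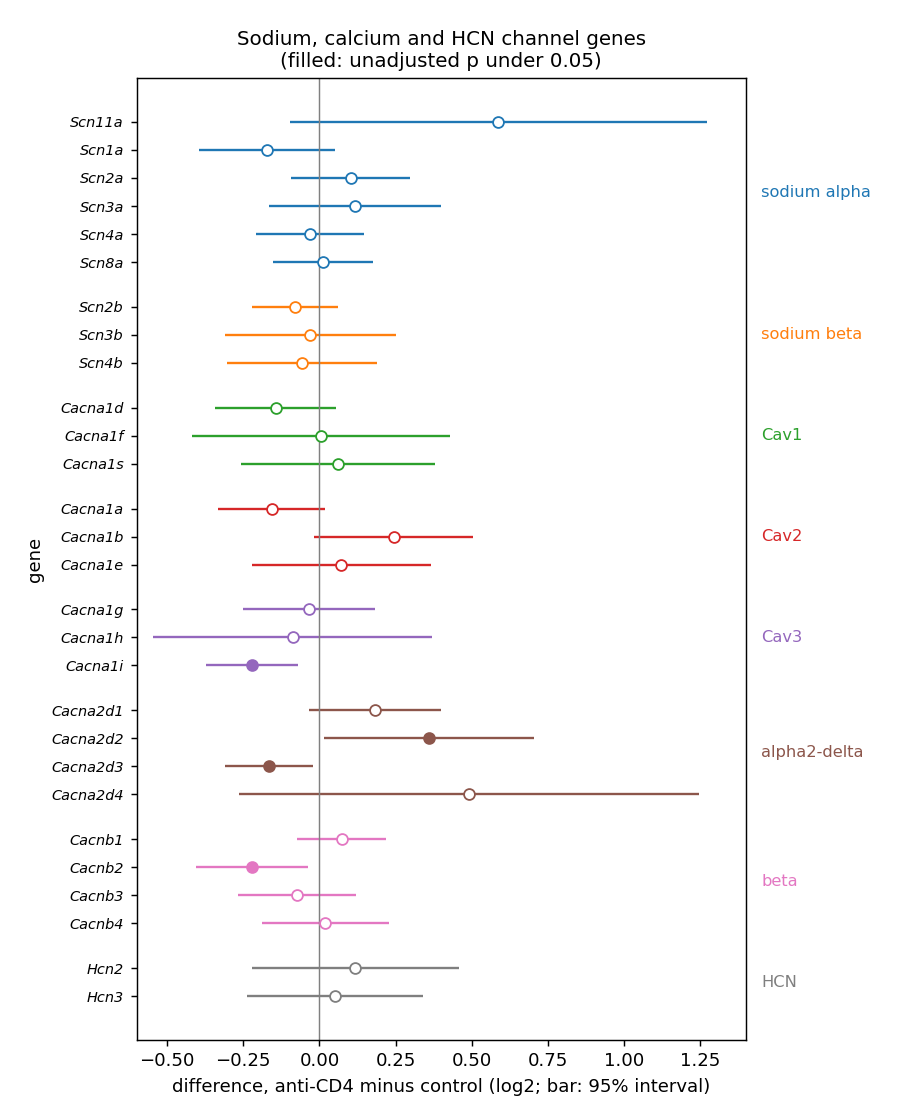
Difference in log2 signal, anti-CD4 minus control (horizontal axis), for 28 of the 31 measured channel genes by family (vertical axis), with bars for the 95% interval and filled points for an unadjusted p under 0.05. Of the 28 points, 15 lie above 0 and 13 below, and 4 are filled.

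Among the sodium channel alpha subunits, 7 of 10 genes were measured, 5 read above 0 and 2 below, and their median difference was 0.10. Scn1a, the channel known for firing of fast-spiking interneurons, read 2.90, 2.81, 2.60 and 2.96 in anti-CD4 samples and 2.89, 3.16, 3.01 and 2.91 in control samples. The groups overlapped, and the difference of -0.17 had an adjusted p of 0.484 (limma). The unadjusted p was 0.0428 with normexp (adjusted p = 0.319, difference -0.21) and 0.0147 in the authors' deposited table (adjusted p = 0.202, difference -0.24), where the groups were separate, and the second probe differed by -0.05. Scn2a, a main alpha subunit of excitatory neurons and their early initial segments, read 4.45, 4.49, 4.22 and 4.37 in anti-CD4 samples and 4.11, 4.31, 4.35 and 4.34 in control samples. Its groups overlapped as well, with a difference of 0.10 (limma adjusted p = 0.626). Scn8a, the channel that sets the threshold at mature initial segments and nodes, read 0.92, 1.02, 0.97 and 0.93 in anti-CD4 samples and 0.83, 0.87, 1.01 and 1.08 in control samples. All 4 anti-CD4 arrays lay inside the control range, and the difference was 0.01 (95% interval -0.15 to 0.18, limma adjusted p = 0.955). Its sign turned with normexp background correction (-0.00089) and without anti-CD4 replicate 2 or control replicate 1 or 2.

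Scn3a, an alpha subunit prominent before birth, differed by 0.12 (limma adjusted p = 0.707, unadjusted p under 0.05 without control replicate 2), and Scn4a, the skeletal muscle channel, by -0.03 (0.888). Scn11a, known from pain-sensing neurons, had the widest difference of the 31 genes at 0.59 ± 0.30 (SE). It read -2.08, -1.52, -3.06 and -2.08 in anti-CD4 samples, against -2.38, -3.11, -2.80 and -2.81 in control samples. Anti-CD4 replicate 3 was inside the control range and replicate 2 was the highest array (limma unadjusted p = 0.0837, adjusted p = 0.446). The unadjusted p was under 0.05 with normexp, with array weights and in the authors' deposited table on all 8 arrays. It was also under 0.05 without anti-CD4 replicate 3, when the groups no longer overlapped.

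The alpha subunits Scn7a, Scn9a and Scn10a did not pass the filter. Scn9a and Scn10a are, like Scn11a, known from sensory neurons of the periphery. Scn7a and Scn9a were well above background on 0 arrays and Scn10a on 1, anti-CD4 replicate 2. Scn10a read -3.48 there, against -6.24 to -5.47 on the other anti-CD4 arrays and -6.21 to -5.67 on the control arrays. On the same array Scn11a, its neighbour on chromosome 9 by the mm9 probe positions, had its highest value, and Scn7a read -5.17, against -6.37 to -6.05 on the other anti-CD4 arrays and -6.28 to -5.96 on the control arrays.

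The sodium channel beta subunits, which regulate gating and also act in cell adhesion, were all measured. Scn2b, Scn3b and Scn4b differed by -0.08, -0.03 and -0.06. None had an unadjusted p under 0.05, and the smallest adjusted p was 0.608 (limma). Scn2b, the gene with that p, read 5.26, 5.23, 5.15 and 5.16 in anti-CD4 samples and 5.19, 5.36, 5.28 and 5.29 in control samples. Control replicate 1 lay among the anti-CD4 values and the other 3 control arrays above them.

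For the L-type calcium channels, 3 of 4 alpha subunits were measured. Cacna1c, known as the predominant L-type channel of brain and heart, was just outside the filter, being well above background on 3 arrays. It read -4.56, -4.45, -3.85 and -5.90 in anti-CD4 samples and -4.58, -4.05, -4.06 and -4.11 in control samples. The probe reached detection in anti-CD4 replicate 3 and in control replicates 2 and 3, so no difference is given. Cacna1d, the other neuronal L-type channel, read -0.38, -0.47, -0.64 and -0.71 in anti-CD4 samples, against -0.39, -0.31, -0.44 and -0.50 in control samples. Anti-CD4 replicates 3 and 4 were the lowest arrays, with a difference of -0.14 (limma adjusted p = 0.515, unadjusted p under 0.05 without anti-CD4 replicate 1 and in the authors' deposited table). Cacna1f, of the retina, and Cacna1s, of skeletal muscle, differed by 0.01 and 0.06.

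The Cav2 alpha subunits, the channels of presynaptic terminals, were all 3 measured, with a median difference of 0.07. Cacna1a, the P/Q-type channel of fast transmitter release, read 2.29, 2.19, 2.09 and 2.12 in anti-CD4 samples and 2.28, 2.49, 2.29 and 2.26 in control samples. Anti-CD4 replicate 1 lay in the control range and the other 3 below it, a difference of -0.16 (limma unadjusted p = 0.0732, adjusted p = 0.429). Without that array the groups were separate, and the unadjusted p was under 0.05 then and with quantile normalization. Cacna1b, the N-type channel, read -3.40, -3.55, -3.56 and -3.85 in anti-CD4 samples, against -3.64, -3.99, -3.93 and -3.78 in control samples. This difference of 0.24 had an unadjusted p of 0.0642 and an adjusted p of 0.416 in limma, and in the authors' deposited table of log2 values it was -0.01. The unadjusted p was under 0.05 without anti-CD4 replicate 4 or control replicate 1, with quantile normalization and with the array median as scale. Cacna1e, the R-type channel, differed by 0.07.

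All 3 T-type alpha subunits, which open near rest and support burst firing, read below 0, with a median of -0.09. Cacna1i had the smallest p of the 31 channel genes. Its brightest probe read 2.53, 2.72, 2.57 and 2.65 in anti-CD4 samples, against 2.75, 2.88, 2.83 and 2.89 in control samples. Every anti-CD4 array lay below every control array, with anti-CD4 replicate 2 and control replicate 1 closest to each other. The difference was -0.22 ± 0.0661 (SE), 1.17-fold lower, with an unadjusted p of 0.00920 and an adjusted p of 0.270 in limma and an exact permutation p of 0.0286, the smallest that 4 against 4 arrays allow. The unadjusted p stayed under 0.05 with each of the 8 arrays left out in turn. The other Cacna1i probe, whose 60 bases hold 73.3% G and C, read -2.19, -2.25, -2.20 and -2.15 in anti-CD4 samples and -2.13, -2.48, -2.34 and -2.06 in control samples. Its groups overlapped, with a difference of 0.05 of opposite sign. Cacna1g and Cacna1h differed by -0.04 and -0.09, and the brightest Cacna1h probe read 1.86 to 2.60 in anti-CD4 samples and 1.82 to 2.55 in control samples.

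The alpha2-delta subunits, extracellular proteins that raise the number of channels at the membrane and of which Cacna2d1 and Cacna2d2 bind gabapentin, held genes in both directions. Cacna2d2 read 1.31, 1.57, 1.03 and 1.18 in anti-CD4 samples and 0.79, 0.62, 1.07 and 1.17 in control samples. Anti-CD4 replicates 1 and 2 were the highest arrays and control replicates 1 and 2 the lowest, and the others overlapped. The difference was 0.36 ± 0.151 (SE), with an unadjusted p of 0.0425 and an adjusted p of 0.371 in limma and an exact permutation p of 0.114. Its second probe differed by 0.26 in the same direction. The unadjusted p was 0.0541 to 0.113 without any of anti-CD4 replicates 1, 2 and 4 or control replicates 1 and 2, and 0.0588 with array weights.

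Cacna2d3 read 3.17, 3.09, 3.16 and 3.0 in anti-CD4 samples, against 3.23, 3.34, 3.24 and 3.26 in control samples. The groups did not overlap, and anti-CD4 replicate 1 and control replicate 1 were closest to each other. The difference was -0.17 ± 0.0633 (SE), with an unadjusted p of 0.0288 and an adjusted p of 0.336 in limma and an exact permutation p of 0.0286. The unadjusted p was 0.0568 to 0.0833 without any of anti-CD4 replicates 2 and 4 or control replicates 2 and 4, and was 0.123 with the array median as scale, 0.0721 with normexp and 0.0607 in the authors' deposited table. Cacna2d1 read 4.00, 4.19, 3.78 and 4.00 in anti-CD4 samples and 3.66, 3.82, 3.87 and 3.89 in control samples. Here 3 of 4 anti-CD4 arrays were above the control range, and the difference was 0.18 (limma adjusted p = 0.452, unadjusted p under 0.05 without anti-CD4 replicate 3). Its second probe read -0.03.

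Cacna2d4, known from the retina, was just inside the filter, well above background on 4 arrays, which were anti-CD4 replicates 1 to 3 and control replicate 1. It read -3.45, -3.67, -3.72 and -4.99 in anti-CD4 samples and -3.94, -4.75, -4.56 and -4.53 in control samples. Anti-CD4 replicate 4 was the lowest array and the other 3 anti-CD4 arrays the highest. The difference of 0.49 had an adjusted p of 0.554 (limma), and the unadjusted p was under 0.05 without anti-CD4 replicate 4.

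**Figure D2:**
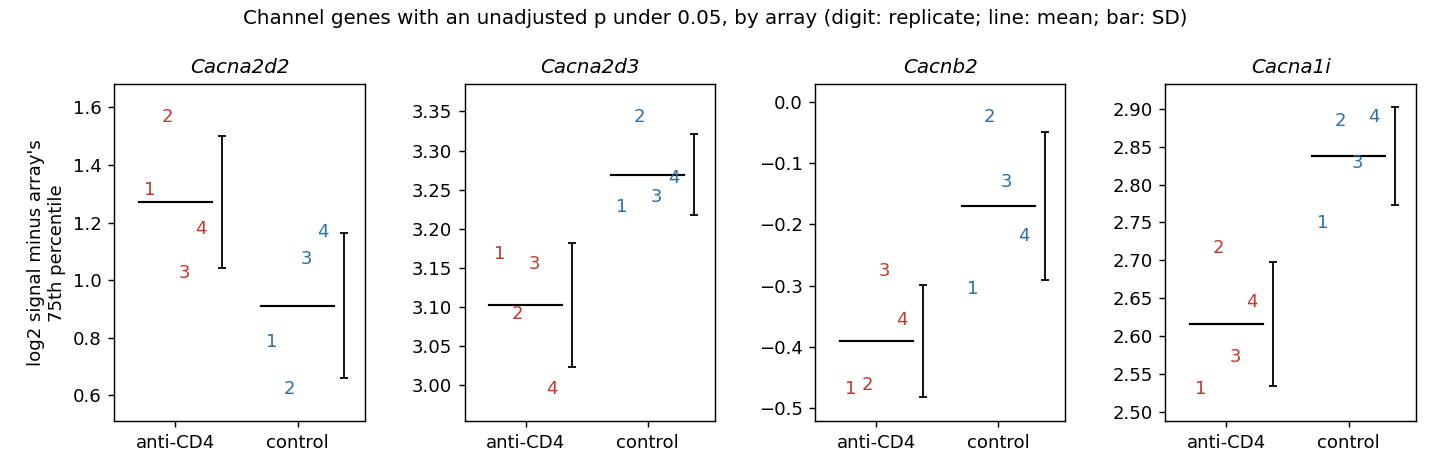
Log2 signal minus the array's 75th percentile (vertical axis, its own range in each panel) for 4 channel genes with an unadjusted p under 0.05, by group (horizontal axis). Digits are replicate numbers, lines the group means and bars the SD. The groups are separate for Cacna2d3 and Cacna1i and overlap for Cacna2d2 and Cacnb2.

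The beta subunits, intracellular proteins that bind the alpha subunit and shield it from degradation, had a median difference of -0.03. Cacnb2 read -0.47, -0.46, -0.28 and -0.36 in anti-CD4 samples, against -0.30, -0.02, -0.13 and -0.22 in control samples. Control replicate 1 lay just below anti-CD4 replicate 3, and the other arrays were separate. The difference was -0.22 ± 0.0805 (SE), with an unadjusted p of 0.0238 and an adjusted p of 0.321 in limma and an exact permutation p of 0.0571. The unadjusted p was 0.0571 to 0.0635 without any of anti-CD4 replicates 1 and 2 or control replicates 2 and 3, and 0.0999 with the array median as scale. A second Cacnb2 probe, whose genomic positions span 3174 bases, read 0.09, the opposite sign. Cacnb1, Cacnb3 and Cacnb4 differed by 0.07, -0.07 and 0.02.

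For the HCN channels, 3 of 4 genes were measured and none had an unadjusted p under 0.05. Hcn2, the slower and strongly cyclic AMP-sensitive subunit, read 5.27, 5.62, 5.55 and 5.72 in anti-CD4 samples, against 5.35, 5.06, 5.59 and 5.68 in control samples. Control replicate 2 was the lowest array, and the difference was 0.12 (limma adjusted p = 0.763) but -0.0013 without that array. Hcn3 differed by 0.05, and Hcn4, the sinoatrial pacemaker subunit, was well above background on 0 arrays.

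Different probes of a gene often read differences of opposite sign, mostly small ones. Of the 31 genes, 13 had more than 1 measured probe, and in 8 of these the probes' differences had both signs. Over 17 pairs of the brightest probe with another of the same gene, 6 had the same sign. The gap between the probes' differences had an exact permutation p of 0.0286 in 3 pairs, all of Scn3a (0.162 adjusted over the 17 pairs). The brightest Scn3a probe read 2.55, 2.44, 2.39 and 2.35 in anti-CD4 samples and 2.05, 2.64, 2.38 and 2.19 in control samples, a difference of 0.12. The dimmest measured one read -2.80, -3.0, -3.03 and -3.25 in anti-CD4 samples and -2.71, -2.24, -2.87 and -2.89 in control samples, a difference of -0.34. The remaining Scn3a probes read -0.21 and -0.10, so 3 of 4 lay below 0.

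The probes of Scn8a read 0.01, -0.13 and -0.17, those of Scn2a 0.10, 0.08 and -0.05, those of Hcn2 0.12 and -0.08 and those of Cacna1g -0.04 and 0.10. The 5 genes whose probes had 1 sign were Scn1a, Cacna1a, Cacna1d and Cacna1h, below 0, and Cacna2d2, above 0. Along the transcript, the last probe by genomic position and strand read a higher difference than the first in 6 of the 13 genes and a lower one in 7.

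**Figure D3:**
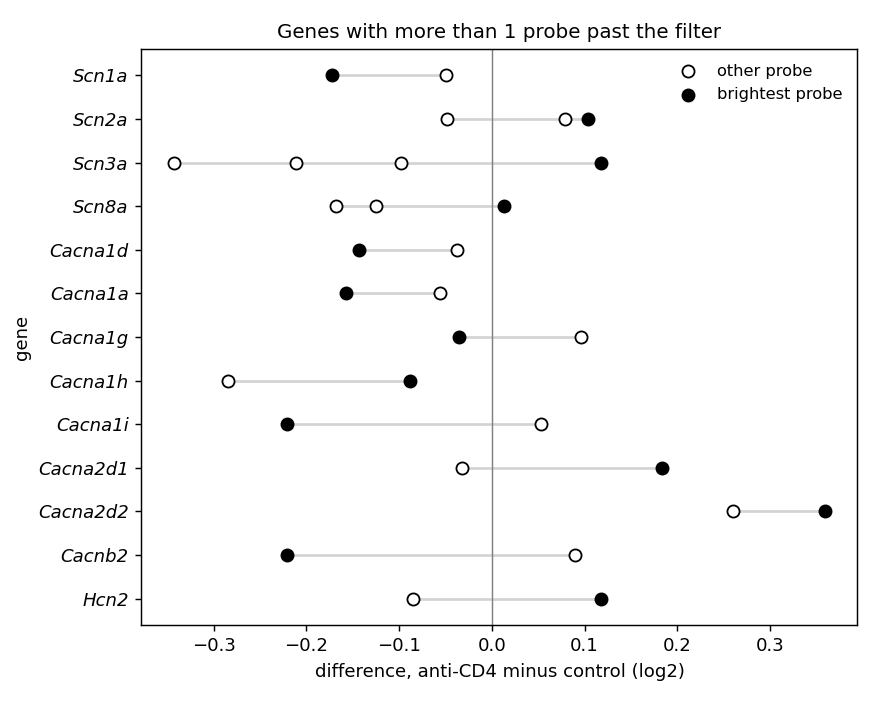
Difference in log2 signal, anti-CD4 minus control (horizontal axis), of each measured probe of the 13 channel genes with more than 1 (vertical axis), filled for the brightest probe and open for the others. In 8 of the 13 genes the points lie on both sides of 0.

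Single arrays weighed on many genes. Control replicate 2 was the lowest array for 7 of the 31 channel genes and the highest for 10, so it was an end of the range for 17. The other arrays were so for 2 to 9 genes. Among the genes with an unadjusted p under 0.05 it was the lowest control array for Cacna2d2 and the highest for Cacna2d3 and Cacnb2. Regional markers also moved on that array. The mean of the dentate granule neuron list, relative to each gene's mean over the 8 arrays, was 0.11, -0.47, 0.12 and -0.27 in anti-CD4 samples and -0.06, 0.42, 0.16 and -0.01 in control samples. That of the striatum list was 0.33, 0.52, -0.04 and 0.17 in anti-CD4 samples and 0.06, -0.58, -0.31 and -0.14 in control samples. Anti-CD4 replicate 2 had the lowest dentate and the highest striatum mean, and control replicate 2 the reverse.

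In all, 7 of 9 dentate markers read lower in anti-CD4 samples and 2 read higher. An unadjusted p under 0.05 was reached by 2 on the lower side, Prox1 and Npnt. On the higher side Calb1 reached it, at 0.43 (limma unadjusted p = 0.0207). These were 33.3% of the list, against 12.8% of all rows. Summed dentate signals were 21.3 to 30.6 times the 75th percentile in anti-CD4 arrays and 23.8 to 38.3 times in control arrays. Of the striatum markers 6 of 8 read higher and 2 lower, and Drd2 and Adora2a did not pass the filter. Their sums were 40.1 to 49.99 times in anti-CD4 arrays and 37.4 to 40.6 times in control arrays. Among the 8, 3 (37.5%) had an unadjusted p under 0.05. Six3 and Penk were higher, and Gng7 was lower, at -0.25 (limma unadjusted p = 0.0114). General neuronal markers were divided, with 3 of 8 above 0 and a median of -0.01. When the dentate mean entered the fit as a covariate, an analysis added once the values were known, 1 of the 31 channel genes had an unadjusted p under 0.05 (Cacna1i), as had 10.5% of all rows, and the difference of Cacna2d2 was 0.21. The dentate mean itself read lowest in anti-CD4 arrays and highest in a control array, so this fit cannot separate it from the group. The part of regional composition in these differences was not tested. Choroid plexus markers varied more between arrays than the other marker lists, with summed signals of 27.4 to 603 times in anti-CD4 arrays and 22.5 to 484 times in control arrays. When the level of Ttr, a choroid plexus marker, entered the fit in the same way, 3 channel genes had an unadjusted p under 0.05 (Cacna1i, Cacna2d3 and Cacnb2), as had 13.4% of all rows.

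**Figure D4:**
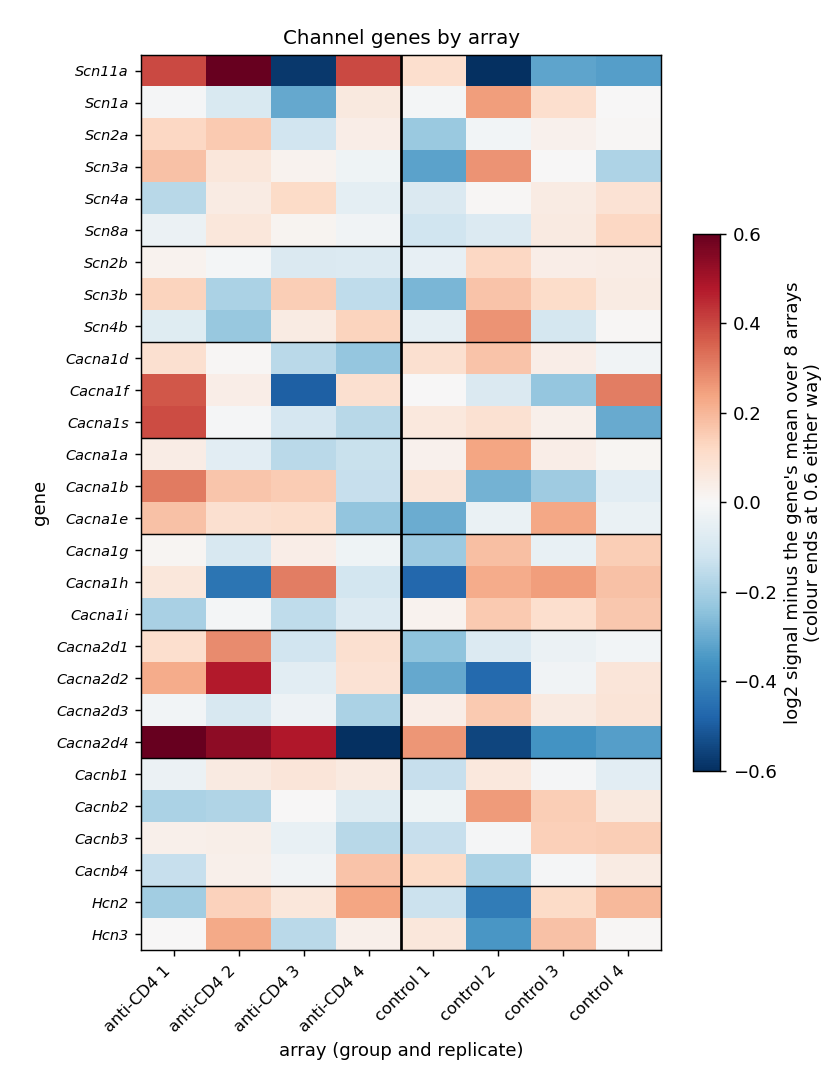
Log2 signal minus the gene's mean over the 8 arrays (colour, ending at 0.6 in either direction) for 28 of the 31 measured channel genes (vertical axis, by family) on each array (horizontal axis, anti-CD4 left of control). Control replicate 2 is the highest array for Cacna2d3 and the lowest for Hcn2.

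The channels' partners were taken from a list of 81 genes on the array whose products anchor, traffic or modulate these channels or form related channels. Of these 71 were measured, and 17 (23.9%) had an unadjusted p under 0.05, 7 higher and 10 lower, against the 12.8% of all rows. None passed the adjusted threshold (smallest adjusted p 0.220, limma), and the median difference was 0.01. The groups did not overlap for 9 of 71 (12.7%), against 8.10% of all rows. By kind, an unadjusted p under 0.05 was found for 6 of 19 sodium channel partners, 5 of 33 calcium channel partners, 2 of 7 HCN partners and 4 of 12 sodium leak and related channels. With an array left out the count of 17 became 13 to 20, where the shares of all rows were 9.20% to 15.7%. No test of the list was made. The list was chosen with earlier results of these data known, so its share is no test against that of all rows.

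Ank3, ankyrin G, which anchors sodium channels at the axon initial segment, read 2.61, 2.45, 2.40 and 2.24 in anti-CD4 samples and 2.77, 2.83, 2.83 and 2.69 in control samples. The groups were separate, with a difference of -0.35 ± 0.0853 (SE; limma unadjusted p = 0.00282, adjusted p = 0.245), and its 3 measured probes all read below 0, from -0.35 to -0.18. Cntn2, a cell adhesion protein of the juxtaparanode, read -2.75, -3.01, -3.14 and -3.03 in anti-CD4 samples and -2.65, -2.49, -2.59 and -2.45 in control samples, a difference of -0.44 (limma unadjusted p = 0.00129, adjusted p = 0.220). It was -0.13 with normexp, -0.15 by its second probe and -0.10 in the authors' deposited table, and the unadjusted p was then over 0.05. Among the other sodium channel partners, Nfasc differed by -0.17, Cntn1 by 0.15 and L1cam by 0.32. Smaller differences were read for Sptbn4 (-0.10), Nrcam (0.10), Cntnap1 (-0.09), Cntnap2 (-0.05) and Ank2 (0.02).

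The gamma-type proteins are relatives of the muscle calcium channel gamma subunit that are known mainly as AMPA receptor auxiliary proteins. Of these, Cacng4, Cacng5 and Cacng7 read higher and are named for an unadjusted p under 0.05. The list also holds Cacng2, Cacng3 and Cacng8, which were not among the partners with such a p on the higher side. Their differences are not given here, so no direction is stated for the gamma-type genes as a set. Of the 33 measured calcium channel partners 18 read above 0 and 15 below, with such a p for 3 higher and 2 lower. Cacng5 read -0.76, -0.65, -1.13 and -1.04 in anti-CD4 samples, against -1.47, -1.74, -1.27 and -1.30 in control samples, so the groups were separate. The difference was 0.55 ± 0.140 (SE; limma unadjusted p = 0.00376, adjusted p = 0.250). Cacng7 differed by 0.25 with separate groups and by 0.08 in its second probe, and Cacng4 by 0.35 with overlapping groups and by 0.05 in the authors' deposited table. The acid-sensing channels Asic1 and Asic4 differed by 0.35 and 0.37, and the epithelial sodium channel subunit Scnn1a by -0.30 (limma adjusted p = 0.256, 0.260 and 0.250).

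Other genes on the lower side were Cav3, caveolin 3, at -0.33, and Catsper2, a sperm calcium channel subunit, at -0.34 but 0.04 in its second probe. Fgf14, an intracellular regulator of sodium channels, differed by -0.07 and Pex5l, the TRIP8b protein that traffics HCN channels, by -0.10. Nalcn, the sodium leak channel, differed by 0.00 (limma adjusted p = 0.770, 0.758 and 0.991). Kcne2, an HCN and potassium channel subunit abundant in choroid plexus, read -4.59, 1.31, 2.97 and 1.57 in anti-CD4 samples and 1.95, -4.37, -6.09 and 2.20 in control samples, a difference of 1.89 (limma adjusted p = 0.75). It was chosen after its values were seen, and its low arrays were those with the lowest choroid plexus list means.

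**Figure D5:**
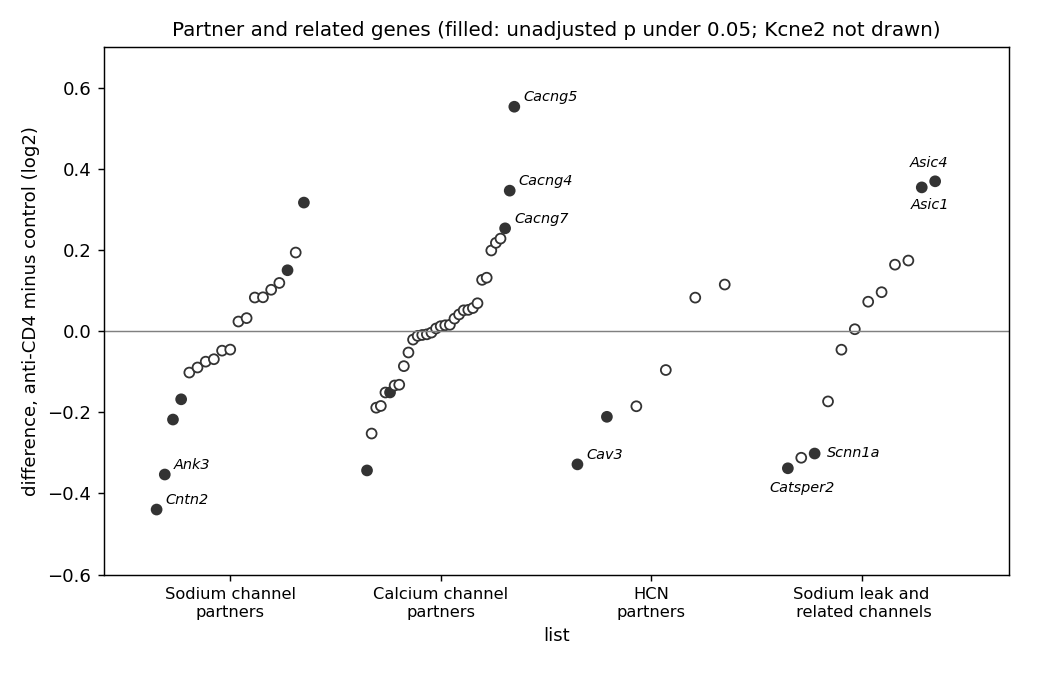
Difference in log2 signal, anti-CD4 minus control (vertical axis), of the measured partner and related genes, sorted within each of 4 lists (horizontal axis), with filled points for an unadjusted p under 0.05. Of the 71 genes 17 have such a p; Kcne2, at 1.89, lies outside the axis and is not drawn.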

How the data were processed

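Per the file headers, the deposited files come from Feature Extraction 10.7.3.1 (design 028005), and their processed signal is a background-subtracted intensity that had not been normalized between arrays. The authors also deposited a table of log2 values for these 55681 probes, which served as an alternative. It had column medians of 7.83, and each column followed the median spot signal of its array in rank. Ranks alone cannot show whether background was subtracted from its values. How else it was made is not given in the sources used here. limma is named in the submitters' processing notes.

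Spots of a probe were averaged without control and flagged spots, and log2 of the processed signal was taken minus each array's 75th percentile. Rows were the gene names of the files, each by its brightest probe well above background on at least 4 arrays, and any probe without a name was a row of its own. Current symbols of the members' probes came from a GRCm38.p6 table, by accession for 51 probes and by symbol for 7. Sequences and mm9 positions are those of the files. Groups, from the sample titles, were compared in R 4.3.3 by limma 3.58.1 (lmFit, then eBayes), two-sided and without covariates, and p-values were adjusted over 20894 rows by Benjamini and Hochberg's method. Single values were compared with exact permutation tests over 70 assignments. The fit was first tested on simulated data.

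The channel genes and the partner and marker lists were chosen with earlier results of these data known. All array values were given for members with an unadjusted p under 0.05 or separate groups, for the smallest p of each family, and for Scn1a, Scn2a, Scn8a, Cacna1a, Cacna1c, Cacna2d1 and Hcn2. Some genes that this rule takes are counted but not reported here. Probes that differed in sign and members on 3 to 5 arrays were named, and of the partners up to 5 per direction by smallest unadjusted p with Ank3, Fgf14, Pex5l and Nalcn. Scn11a, Cacna2d4, Kcne2, L1cam, Cntn1 and Nfasc were given more values than this rule asks for after their values were seen. So were Sptbn4, Nrcam, Cntnap1, Cntnap2 and Ank2.

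Samples of the groups share replicate numbers, which equal the slide column. Deviations of same-numbered samples from their group means correlated at -0.50, -0.31, -0.34 and 0.29 for numbers 1 to 4. The numbers were not taken as pairs, though these correlations over all rows cannot settle whether the samples were paired. All arrays lay on 1 slide and were scanned on 1 day. Alternatives were the array median as scale, quantile normalization, normexp (offset 50), other detection filters, other probes of the same gene, the replicate number as a block, array weights, eBayes with trend and robust, the authors' table, a threshold of 0.1 and leaving out each array. The Ttr and dentate covariates were chosen after the values had been seen.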

Additional observations from a re-analysis of the deposited data

Results flagged for a closer look

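In 4 of 62 groups of 4 arrays (6.45%), 2 groups for each of the 31 channel genes, 1 array stood apart from the other 3 by Dixon's gap test, which chance alone does in about 1 group in 20. All 4 were control arrays. The Scn2a level was 4.11 in control replicate 1, where the other 3 control arrays read 4.31 to 4.35. Cacna1h read 1.82 in control replicate 1, against 2.47 to 2.55. Cacna1a read 2.49 in control replicate 2, against 2.26 to 2.29. Cacna1s read -1.74 in control replicate 4, against -1.41 to -1.35. None of these genes had an unadjusted p under 0.05 with all arrays.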

How the results depend on the processing

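The count of channel genes with an adjusted p under 0.05 was 0 under all 22 alternatives, and of 838 values computed under alternatives 791 kept their direction and side of the threshold or moved by less than the replicate spread, 26 changed sign and 21 moved further. The count with an unadjusted p under 0.05, 5 in the reported setting, was 2 with the mean of a gene's probes (12.2% of all rows). It was 2 with the second brightest probe (12.3%), 2 with the replicate block (8.95%), 3 with the Ttr covariate (13.4%) and 1 with the dentate covariate (10.5%). With an array left out it was 1 to 6. It was 6 without anti-CD4 replicate 3 (15.7%), 1 without anti-CD4 replicate 2 (9.25%) and 3 without control replicate 2 (10.69%). At a threshold of 0.1 the count was 9, and the share of all rows at that threshold was not computed. The count with separate groups was 1 with the array median as scale (8.36% of all rows) and 3 to 8 with an array left out, 8 without anti-CD4 replicate 3 (16.8%) and 5 without anti-CD4 replicate 4 (10.71%) or control replicate 1 (11.4%). Over the array, normexp called 3084 and the replicate block 1869 of 20894 rows at an unadjusted p under 0.05, where 2673 were called as reported. At the adjusted threshold 17 rows were called without anti-CD4 replicate 3, and 2 with the authors' table and with eBayes using trend and robust.

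The members' median was -0.044 to 0.010 with an array left out. The sodium alpha median was 0.037 with normexp, -0.031 with the mean of probes, -0.031 with the second brightest probe, 0.010 with the authors' table and 0.030 to 0.13 with an array left out. The T-type median was 0.053 with the second brightest probe and -0.25 to -0.0095 with an array left out, and the beta subunit median 0.046 with the second brightest probe.

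With the second brightest probe the sign turned for Scn8a (-0.13), Cacna1i (0.053), Cacna2d1 (-0.033), Cacnb2 (0.090), Hcn2 (-0.085), Catsper2 (0.040) and Fgf14 (0.053), and with the mean of probes for Scn8a (-0.094). It turned with normexp for Scn8a (-0.00089) and Nalcn (-0.044), with array weights for Scn8a (-0.025), and with the authors' table for Cacna1b (-0.0054) and Nalcn (-0.059). With the Ttr covariate Nalcn read -0.024, and with the dentate covariate Scn8a read -0.014, Hcn2 -0.032 and Nalcn -0.15. With an array left out, Scn8a ranged from -0.025 to 0.056, Hcn2 from -0.0013 to 0.21 and Nalcn from -0.068 to 0.10. The cause of these turns was not tested.

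The replicate numbers were not taken as pairs, and the correlation of deviations over all rows cannot settle whether the samples were paired. The 2 calls left under the block (Cacna1i among them) are given as a count. Number 4 was the only number whose samples correlated best with each other. Cacna2d4 was well above background on 4 arrays, and 5 genes were below the filter.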

Other observations

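Outside the channel families, globin and other blood markers read higher in anti-CD4 samples in 4 of 4 genes, each with an unadjusted p under 0.05 (limma, smallest adjusted p = 0.187) and a median difference of 0.46. Their summed signal was 34.4 to 42.0 times the 75th percentile in anti-CD4 arrays and 24.7 to 29.5 times in control arrays, so the groups did not overlap. Markers of thalamus and habenula read higher in 7 of 7 measured genes, with a median of 0.21, and 2 had an unadjusted p under 0.05 (limma, smallest adjusted p = 0.344). Plekhg1, Pou4f1 and Gbx2 of that list did not pass the filter. The share of all rows with such a p was 12.8%. GABAergic interneuron markers read higher in 3 of 9, with a median of -0.05, and CA1 pyramidal markers in 3 of 5, with a median of 0.04, and none of either list had an unadjusted p under 0.05. Of 6 T lymphocyte genes on the array, Cd3d, Cd3g and Cd8a did not pass the filter, and the 3 measured differed by 0.01 (Cd3e), 0.02 (Cd4) and 0.25 (Lck).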
